A study of Mus musculus with 2 samples.

Results

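The solute carriers for sugars, monocarboxylates, fatty acids, nucleosides, nucleotide sugars, metals, inorganic ions and organic ions were described in epidermal keratinocytes with constitutively active Smad1. Their genes were taken from the array's own gene names, as every gene spot named Slc2a, Slc4a, Slc5a, Slc8a, Slc9a, Slc12a, Slc16a, Slc20a, Slc22a, Slc24a, Slc27a, Slc29a, Slc30a, Slc31a, Slc35a to Slc35f, Slc39a or Slc40a and then a number. This gave 158 genes, measured by 262 probes, of the 27980 genes and 41174 probes on the array. Of these genes 155 encode carriers, and 3 carry a carrier's name without being one: Slc9a3r1, Slc9a3r2 and Slc4a1ap. The file names Slc24a6, Slc22a9 and Slc9a10 were kept, although the reference table now calls these genes Slc8b1, Slc22a19 and Slc9c1.

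K14-caSmad1 mice are transgenic animals that overexpress an always active version of Smad1, a transcription factor inside cells that relays signals of bone morphogenetic proteins. The keratin 14 promoter named in the transgene is active in basal keratinocytes of the epidermis and in the outer root sheath of the hair follicle. They were compared with wild-type mice. Both groups were FVB/NJ, an albino strain, at day 20 after birth, and the RNA source is labelled as primary epidermal keratinocytes. The question was how gene expression in the epidermis differs when Smad1 is constantly active. Each of 2 two-colour arrays held K14-caSmad1 RNA in the Cy5 channel and wild-type RNA in the Cy3 channel, so without a dye swap the dye and the genotype cannot be told apart. The labels call the arrays biological replicates, but they do not give the number or sex of the animals or whether RNA was pooled.

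Solute carriers are membrane proteins that move small molecules down a gradient or couple their movement to that of another solute, usually sodium or protons. In epidermis they feed glycolysis and export lactate, bring in fatty acids for the lipid barrier, supply zinc, copper and iron to enzymes, and set cell pH and volume. Several matter for skin by their human or mouse mutants: loss of the zinc carrier SLC39A4 causes acrodermatitis enteropathica, and loss of the fatty acid carrier Slc27a4 disrupts the skin barrier.

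The array read each gene through 60-base probes, and the results turn on a few of them, whose starts are shown here. The 30 bases given are the 5′ end of each probe, in lower case because no base is singled out, with positions on the mm9 mouse genome build as the scanner files give them. Slc4a7 is shown with its 3 probes because only the one nearest the start of the transcript was above background. Slc16a1 is shown with 3 probes because a pair of them near the end of the transcript gave a like rise and the other was not above background. Slc39a8 and Slc31a1 are shown with their tested probes because these differ in the size of the change, and Slc40a1 and Slc35a1 because each has 1 probe only.
Slc4a7, chr14:15572341-15572400, transcript position 887: aaaggttcacgagtcggattcccctggttc
Slc4a7, chr14:15614734-15618862, transcript position 3181: atggttcttgcattagtctttgtgcgcaag
Slc4a7, chr14:15632300-15632359, transcript position 7231: gacctgatatttttcatctatatgaagtac
Slc40a1, chr1:45965255-45965314: ttctagagcaacaatagtcacaaaagttcc
Slc16a1, chr3:104460941-104461000, transcript position 2981: atgggttcagtgtaaggataagaggaaaga
Slc16a1, chr3:104460835-104460895, transcript position 2875: gaggaagtttgctgagaacttgtatcatgc
Slc16a1, chr3:104457083-104457142, transcript position 983: gtctggaaatgtggtcatgttttttggact
Slc39a8, chr3:135551169-135551228, transcript position 2912: gtgatgagaattagtaatagaagccaagtt
Slc39a8, chr3:135549902-135549961, transcript position 1645: acatcgaattgcagtagccggaagtggagt
Slc31a1, chr4:62050429-62050488, transcript position 1321: ctcagtcatcaacttgtgttcctattgaac
Slc31a1, chr4:62051984-62052043, transcript position 2876: cttccgagtagaaatagtctgctgcaaatc
Slc35a1, chr4:34611367-34611426: gggttacccagacaagatactacatccatt
The longest run of bases that the probe standing for a called gene shared with a probe of another gene on the array was between 12 and 15 bases (13 for Slc4a7).

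Between 14412 and 15800 of the 43379 gene spots were well above background in the K14-caSmad1 channel and between 15570 and 16144 in the wild-type channel, and none was saturated (0 in both channels). The arrays repeated closely: the log2 ratio of a measured member differed between them by a median of 0.0512 and by at most 0.374. Set against the noise between spots, the difference between the arrays was smaller than predicted for 12287 probes with 1 spot (SD 0.0946 against 0.107) and larger for 94 repeated probes (SD 0.0519 against 0.034). This points both ways and no label shows separate animals, so both arrays together count as 1 sample. Values are given for each array, there is no error between animals, and limma's p-value says only how closely the arrays repeat each other. Of the keratinocyte markers 9 of 10 were well above background in both groups, and 5 were at least 2-fold higher and 0 lower in K14-caSmad1. All 13 hair shaft and inner root sheath markers on the array were at least 2-fold lower in K14-caSmad1 (summed normalized intensity 121400 and 121700 in K14-caSmad1, against 2039000 and 2159000 in wild type), and all 13 stayed above background in both groups. Fewer cells of a type and less RNA per cell cannot be told apart in such bulk samples, and the part of these markers in the results on carriers was not tested. The brighter Smad1 probe had a log2 ratio of 0.27, and the labels do not say whether it can read the transgene.

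Carriers were more often lower than higher in K14-caSmad1 epidermis, and so were all genes tested. Of the 158 genes 93 could be tested, because a probe was clearly above background in 1 of the groups or in both, on each array, and 91 of these are carriers. A gene was called where the ratio reached 2-fold on each array in the same direction. By this rule 2 carriers were higher, Slc16a1 and Slc27a2, and 14 were lower. Slc9a3r1, which is no carrier, was lower as well. Across all 11754 genes tested the rule called 13.9%, 4.08% as higher and 9.81% as lower. Among the 93 tested members it called 18.3%, 2.15% as higher and 16.1% as lower. The median log2 ratio of K14-caSmad1 over wild type was -0.12 for the 91 carriers and -0.03 for all genes tested. Of the carriers 34 lay above 0 and 57 below, and of all genes tested 5602 lay above and 6152 below. With median centring in place of the intensity-dependent (loess) normalization the medians turned to 0.11 for carriers and 0.22 for all genes, while 3 carriers were higher and 11 lower. The rule then called 9.44% of all genes as higher and 6.9% as lower, so that the lean of all genes turned round. With 36 spots of uneven local background kept in the background fit, 1 carrier was higher and 5 were lower: Slc16a1 above, and Slc16a6, Slc31a1, Slc39a8, Slc40a1 and Slc4a7 below. Filtering itself leans towards the group that is bright: 19 members were tested through wild type alone and 3 through K14-caSmad1 alone. The limma test with Benjamini-Hochberg adjustment passed 31 members as higher and 48 as lower, but it passed 87.1% of all genes and hence sets few apart. For the called members its adjusted p lay between 1.56e-05 and 6.48e-05.

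Grouped by substrate, the picture was uneven. The groups with the lowest medians among those of 4 or more tested genes were fatty acids (-0.70, 5 tested), bicarbonate (-0.68, 5 tested), sodium-calcium exchange (-0.61, 4 tested) and sugars (-0.53, 8 tested). Those with a median above 0 were the zinc group (0.15, 16 tested) and nucleotide sugars (0.06, 14 tested), which turned to -0.02 and -0.11 with no filter on dim probes. Monocarboxylates had a median of -0.08 and held both the highest carrier, Slc16a1, and a called lower one, Slc16a6. The plot of log2 ratios by substrate shows that 4 groups of carriers held no called gene, among them nucleosides and cation-chloride carriers, and those with a called gene also held uncalled ones, except iron, which has 1 gene.

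Carriers of monocarboxylates held the clearest rise. Slc16a1 encodes MCT1, which carries lactate, pyruvate and ketone bodies together with a proton. Its normalized intensity was 8796 and 7044 on the arrays in K14-caSmad1, against 2444 and 2035 in wild type. Both K14-caSmad1 values exceeded both wild-type values, and the log2 ratio was 1.85 and 1.79. The probe at transcript position 2875 gave 1.67, while the probe at transcript position 983 was above background in neither group. Slc16a1 stayed at least 2-fold higher in all 11 alternative ways of processing that keep the 2-fold rule, between 1.67 and 2.12. The settings that alter only the filter left its value unchanged, and leaving out an array could not remove the call.

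Slc16a3, the lactate exporter MCT4 of glycolytic cells, had a log2 ratio of 0.48 and did not reach 2-fold. Slc16a7 (MCT2) was not above background in K14-caSmad1 and at least 1.29-fold lower. Slc16a6, which encodes MCT7, a carrier of ketone bodies in zebrafish liver, was lower. It had 1988 and 1737 in K14-caSmad1, against 5979 and 5324 in wild type, a log2 ratio of -1.60, while its other tested probe was dim in K14-caSmad1 and at least 1.16-fold lower. Slc5a8, a sodium-coupled carrier of monocarboxylates, had a log2 ratio of -0.10.

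Sugar carriers did not follow Slc16a1. Slc2a1, which encodes GLUT1, the main glucose carrier of keratinocytes, had 4905 and 4435 in K14-caSmad1, against 6901 and 6358 in wild type (log2 ratio -0.51). The wild-type values were the higher ones on both arrays, at less than 2-fold. Slc2a12 (GLUT12) had the highest ratio of the group with 0.64, and the fructose carrier Slc2a5 had 0.61. Slc5a2, which encodes the sodium-coupled glucose carrier SGLT2 known from kidney, was the only sugar carrier called. It had 416 and 403 in K14-caSmad1, where it was not above background, against 963 and 879 in wild type, and was thus at least 2.20-fold lower. With all spots in the background fit its mean log2 ratio was -0.675, a smaller change than this bound. Slc2a3 and Slc2a4, the glucose carriers GLUT3 and GLUT4, could not be tested.

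Genes that handle the sugar and lactate inside the cell moved in both directions. Of 15 such genes 14 were tested, 3 were called higher and 1 lower, and their median was -0.07. The shares to set beside this and the later lists are those of all genes tested, 4.08% higher and 9.81% lower. Hif1a, the oxygen-regulated transcription factor of glycolytic genes, had 3303 and 2951 in K14-caSmad1, against 903 and 816 in wild type, a log2 ratio of 1.86. Ldha, the lactate dehydrogenase subunit that favours lactate formation, had 46900 and 40430 in K14-caSmad1, against 19100 and 16740 in wild type (log2 ratio 1.28, its other probe 0.48). Pfkfb3, which makes an activator of glycolysis, had a log2 ratio of 1.20. Ldhb, the other lactate dehydrogenase subunit, was lower with -1.10. Bsg and Emb, the chaperones that bring MCT1 to the membrane, had -0.08 and 0.23.

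Fatty acid carriers divided. These proteins take up long-chain fatty acids and join them to coenzyme A. Slc27a2 (FATP2) was higher, with 691 and 726 in K14-caSmad1, against 277 and 295 in wild type, where it was not above background, so it was at least 1.75-fold higher. Its other 2 probes were above background in neither group. Slc27a1 (FATP1) was lower, with 709 and 998 in K14-caSmad1, against 1481 and 2124 in wild type (log2 ratio -1.08, its other probe -0.64). Slc27a6 (FATP6) had 441 and 397 in K14-caSmad1, not above background, against 1097 and 988 in wild type, and was at least 2.49-fold lower. With all spots in the background fit Slc27a2 and Slc27a6 had mean log2 ratios of 0.73 and -0.79, smaller changes than these bounds. These calls depended on the processing. Slc27a1 kept its call in 6 of the 11 alternatives that gave it a value, and Slc27a2 and Slc27a6 each in 8 of 10. Leaving out an array could not remove a call, the filter settings changed no value, and the deposited table repeats the scanner's ratio. Slc27a1 lost its call with median centring (-0.78), no background subtraction (-0.84) and all spots in the background fit (-0.69). The probe rules also removed it (-0.86 and -0.64). Slc27a4 (FATP4), the member needed for the skin barrier, had a log2 ratio of -0.70 and fell short of 2-fold on both arrays. Its other probe was dim in K14-caSmad1 and at least 1.36-fold lower.

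Fatty acid partner genes also leaned to lower values. Of 11 genes 10 were tested, 0 were higher and 3 lower, with a median of -0.74. Fabp4, a fatty acid binding protein, had 7300 and 6486 in K14-caSmad1, against 185700 and 165500 in wild type, a log2 ratio of -4.67 that all its 3 tested probes shared (down to -5.53). Crat, carnitine acetyltransferase, had -2.35, and Acsl3, which activates long-chain fatty acids, had -1.72. Fabp4 is also an adipocyte marker. Of the 9 adipocyte markers 3 were tested and 2 were lower (summed intensity 8378 and 7513 in K14-caSmad1, against 187400 and 167100 in wild type, mostly Fabp4), while Adipoq, Plin1, Cidec, Cfd, Retn and Lep were not above background. Of the sebaceous gland markers 5 of 10 were tested, 0 were higher and 1 lower. The part of either cell type in the lower fatty acid carriers was not tested.

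Among carriers of metals Slc40a1 had by far the largest fall. Slc40a1 encodes ferroportin, the only known exporter of iron from mammalian cells. It had 3213 and 7755 in K14-caSmad1, against 52630 and 98000 in wild type. Although the level differed between the arrays in both groups, every wild-type value was far above every K14-caSmad1 value, and the log2 ratio was -4.03 and -3.66. It lies on 1 probe, so the settings for the filter and the probe rule could not change its value. It stayed lower in all 11 alternatives, between -4.03 and -3.59, though leaving out an array could not remove the call. No other tested iron gene was called lower. Of 14 genes 10 were tested, 1 was higher and 0 lower, with a median of 0.19, and 6 lay above 0 and 4 below. Fth1, the heavy subunit of the iron store ferritin, had 66970 and 59230 in K14-caSmad1, against 28470 and 26610 in wild type (log2 ratio 1.19). The transferrin receptor gene Tfrc had a log2 ratio of 0.83 and Ireb2, an iron-sensing regulator of mRNAs, 0.88, and neither was called. Those below 0, also uncalled, were Fbxl5 (-0.79), Aco1 (-0.49), Ftl1 (-0.34) and Hfe (-0.10). Macrophages and red cell precursors are known for high ferroportin. The Langerhans cell and macrophage markers, 9 of 10 tested, had a summed intensity of 45640 and 47530 in K14-caSmad1, against 37530 and 41280 in wild type, with 1 higher and 1 lower. Of the erythroid markers 3 of 10 were tested and 2 were lower (summed intensity 2338 and 2149 in K14-caSmad1, against 14890 and 13470 in wild type), while Klf1 was not above background. Their part in the fall of Slc40a1 was not tested.

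Of the copper carriers 1 of 2 was called. Slc31a1 encodes CTR1, the high-affinity copper importer. It had 4876 and 4187 in K14-caSmad1, against 13920 and 12550 in wild type, a log2 ratio of -1.55, and its other probe gave -0.47. Slc31a2 (CTR2) had 0.22, with its other probe at -0.59. None of the 6 tested copper handling genes of 7 was called (0 higher, 0 lower, median -0.22). Atp7a, the copper pump that supplies copper enzymes, had -0.70.

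Zinc carriers lay mostly close to 0, with 2 called. Slc30a proteins move zinc out of the cytosol and Slc39a proteins move it in. The 7 tested Slc30a genes had a median log2 ratio of 0.35, with 5 above 0, and the 9 tested Slc39a genes a median of -0.01, with 4 above 0. Whether these medians differ was not tested. Each family had 1 member called, and both were lower. Slc30a4 (ZnT4), which loads zinc into vesicles and is mutated in the lethal milk mouse, had 2959 and 2408 in K14-caSmad1, against 6878 and 5629 in wild type (log2 ratio -1.22). Slc39a8 (ZIP8), an importer of zinc, manganese and other divalent metals, had 4197 and 3887 in K14-caSmad1, against 12950 and 12150 in wild type. Its log2 ratio was -1.63, the other tested probe, dim in K14-caSmad1, was at least 1.14-fold lower, and a further probe was above background in neither group.

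At the upper end of the zinc group no gene reached 2-fold on both arrays. Slc30a5 (ZnT5), which fills the secretory pathway with zinc, had 0.78, with its other tested probe at 0.62. Slc39a6 (ZIP6) had 0.64. Slc30a1 (ZnT1), the zinc exporter of the plasma membrane, had 0.48, but its other probe gave -0.33. Slc39a4 (ZIP4) was not above background in K14-caSmad1 and at least 1.62-fold lower. Slc39a2 and Slc39a14 could not be tested. Of the 5 zinc-binding and zinc-sensing genes, all tested, Mt2 was higher and Mt4 lower, with a median of -0.26. Mt2, a metallothionein that binds zinc and copper, had 106000 and 102000 in K14-caSmad1, against 35480 and 35840 in wild type (log2 ratio 1.54). Mt4, the metallothionein of stratified epithelia, had a log2 ratio of -1.17 (its other probe -0.88), and Mt1 had 0.43.

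**Figure D1:**
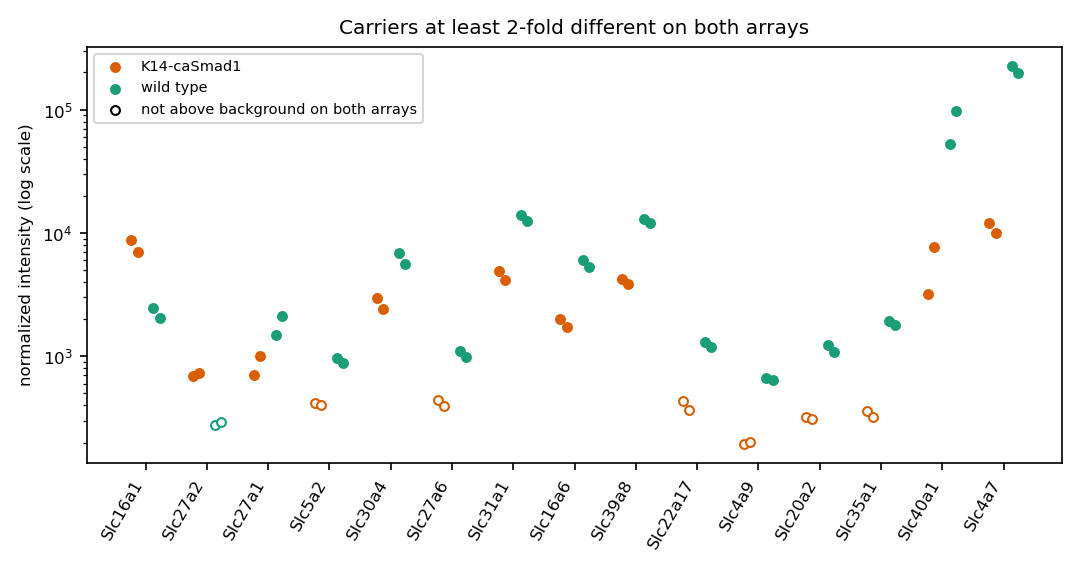
Normalized intensity (y axis, log scale) of 15 of the called carriers, ordered by log2 ratio; each point is 1 array, K14-caSmad1 in orange left of wild type in green, and open points mark a group in which the probe was not well above background on both arrays. Slc4a7 and Slc40a1 were the brightest in wild type (up to 226000 and 98000), and 6 of the lower carriers were not above background in K14-caSmad1.

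The plot of intensities of the called carriers shows that they range from dim to very bright probes. In each of these 15 the groups did not overlap, but the 2-fold rule that picked them favours this. The separation is thus no further support, and its share among all genes was not counted.

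Bicarbonate carriers, which set pH, held the largest fall of all. Slc4a7 encodes NBCn1, an electroneutral carrier of sodium with bicarbonate. The probe nearest the transcript's start had 12080 and 10010 in K14-caSmad1, against 226000 and 198000 in wild type, and a log2 ratio of -4.23 and -4.31. The probes at transcript positions 3181 and 7231 had between 259 and 389 in K14-caSmad1 and between 248 and 381 in wild type, above background in neither group. The fall of Slc4a7 thus rests on 1 of 3 probes, and that probe was brighter in wild type than any other probe of a carrier. It stayed lower in all 11 alternatives, between -4.31 and -4.05. The settings for the filter and the probe rule left its value unchanged, and leaving out an array could not remove the call. Slc4a9 (AE4) had 195 and 203 in K14-caSmad1, not above background, against 663 and 639 in wild type, and was at least 1.57-fold lower. Slc4a1, the band 3 anion exchanger of red cells, had -0.68, beside the 2 of 3 tested erythroid markers that were lower. Slc4a8 had 0.00 and Slc4a2, the anion exchanger AE2 of many tissues, had -0.05.

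Of 10 carbonic anhydrases, the enzymes that interconvert carbon dioxide and bicarbonate, 5 were tested, 0 were higher and 1 was lower, with a median of -0.40. The gene called was Car2, which had 976 and 972 in K14-caSmad1, against 5368 and 5557 in wild type, a log2 ratio of -2.49. The other 4 lay between -0.85 and -0.18.

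Sodium-proton exchangers swap sodium for protons across membranes. Slc9a2, an exchanger of the plasma membrane, had a log2 ratio of 0.29, and did not reach 2-fold. Slc9a8 was not above background in K14-caSmad1 and at least 1.25-fold lower. Both were named after their values were seen. Slc9a3r1, the scaffold protein NHERF1 that anchors exchangers and other membrane proteins, had 1102 and 2578 in K14-caSmad1, against 2576 and 6050 in wild type. Its groups overlapped in level, since both were brighter on replicate 2, while the log2 ratio was -1.23 on each array. Slc4a1ap, an adaptor protein, had 0.14.

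Both phosphate carriers had log2 ratios below 0, and 1 of 2 was called. Slc20a2 (PiT2) had 321 and 309 in K14-caSmad1, not above background, against 1233 and 1075 in wild type, and was at least 2.78-fold lower. With all spots in the background fit its mean log2 ratio was -1.09, a smaller change than this bound. Its other tested probe, also dim in K14-caSmad1, was at least 1.69-fold lower. Slc20a1 (PiT1) had -0.77, with its other probe at -0.23. None of the 3 tested phosphate partner genes of 4 was called (0 higher, 0 lower, median 0.10).

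Of the sodium-calcium exchangers 4 were tested and none was called (0 higher, 0 lower, median -0.61). The mitochondrial exchanger Slc24a6 was not above background in K14-caSmad1 and at least 1.72-fold lower, and Slc24a3 had -0.01, or 0.29 with median centring. Slc8a1, the exchanger of heart muscle, could not be tested with any of its 7 probes, and Slc24a5, which acts in pigment cells, could not be tested. Of the calcium partner genes 9 of 12 were tested, 0 were higher and 1 was lower, with a median of 0.24. The gene called was Trpv3, a warmth-gated calcium channel of keratinocytes in which mouse mutations cause hair loss. It had 1027 and 1523 in K14-caSmad1, against 4693 and 7158 in wild type, a log2 ratio of -2.21.

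Cation-chloride carriers, which set cell volume, gave no call. None of the 6 tested was called (0 higher, 0 lower), and their log2 ratios lay between -0.64 for Slc12a9 and 0.37 for Slc12a5. Slc12a2, the sodium-potassium-chloride carrier NKCC1, had 2413 and 2254 in K14-caSmad1, against 2384 and 2349 in wild type (-0.02). Groups overlapped here. The sodium pump and volume genes, 12 of 15 tested, had 0 called in either direction and a median of 0.04. Atp1b1, a subunit of the sodium pump, came closest with 1.02, since it was just under 2-fold on replicate 1 (0.99).

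Nucleotide sugar carriers bring activated sugars from the cytosol into the Golgi and endoplasmic reticulum for glycosylation. Of 22 such genes 14 were tested, and 1 was called. Slc35a1, the carrier of CMP-sialic acid, had 359 and 320 in K14-caSmad1, not above background, against 1935 and 1808 in wild type. With the main settings it was at least 4.52-fold lower, and it lies on 1 probe. With all spots in the background fit its mean log2 ratio was -1.57, a smaller change than this bound. The other 13 lay between -0.48 for Slc35b4 and 0.60 for Slc35a5. Slc35c1, the carrier of GDP-fucose, had 0.13. Slc35d1, a carrier of UDP-glucuronic acid, was dim in wild type on 1 array and at least 1.16-fold higher. Slc35a2, the carrier of UDP-galactose, could not be tested.

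Among genes that make nucleotide sugars, a list that also holds Papss1, the few calls were higher ones. Of 18 genes 12 were tested, 3 were higher and 0 lower, with a median of 0.35. Of all genes tested 4.08% were called higher and 9.81% lower. Papss1, which makes the sulfate donor PAPS, had 8854 and 8020 in K14-caSmad1, against 3825 and 3525 in wild type (log2 ratio 1.20). Ugp2 and Ugdh, which act in sequence on the way to UDP-glucuronic acid, had 1.07 and 1.09, and the other probe of Ugp2 gave 0.41. The PAPS carriers Slc35b2 and Slc35b3 had -0.13 and -0.01. Of the genes that act in sialic acid synthesis, Nans had 0.29, and Gne, dim in K14-caSmad1 on 1 array, was at least 1.19-fold lower. Cmas, which makes CMP-sialic acid, could not be tested.

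**Figure D2:**
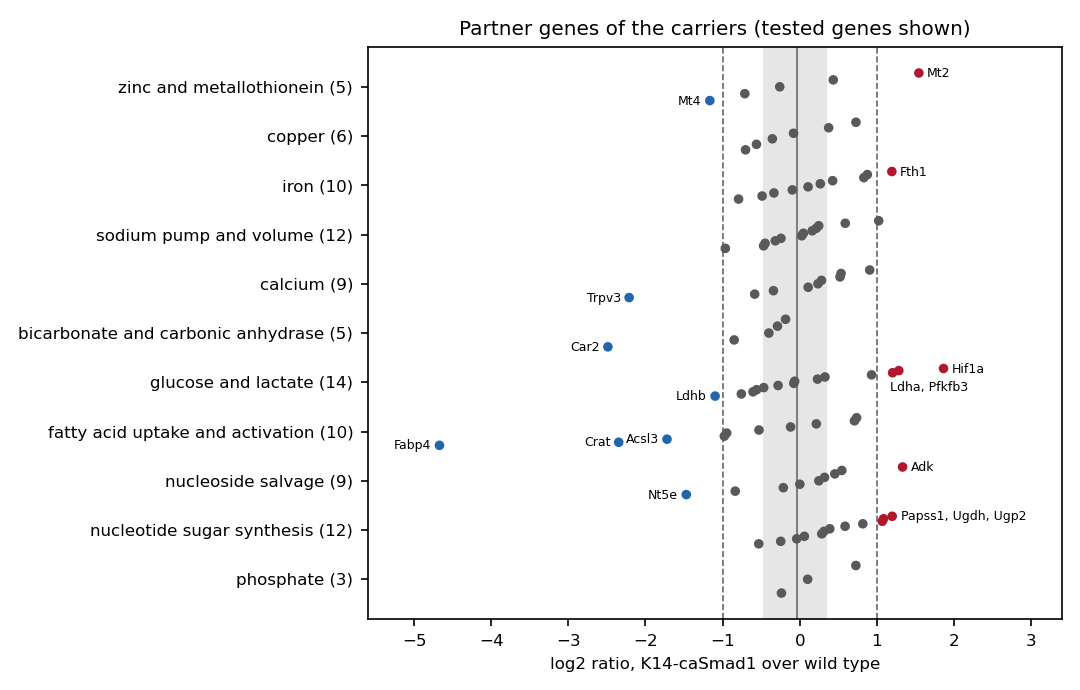
Log2 ratio of K14-caSmad1 over wild type (x axis, mean of both arrays) for tested genes that work with the carriers, 1 row of points per list with the number tested in brackets; red and blue mark genes called higher and lower, dashed lines lie at 2-fold, and the grey band and line give the quartiles and the median of all genes tested. Fatty acid genes reach from -4.67 (Fabp4) to 0.74, while nucleotide sugar synthesis holds 3 higher genes and 0 lower ones.

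The plot of partner genes shows that most lists straddled 0, and that called genes of opposite direction stood in the same list for zinc, glucose and nucleosides.

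Nucleoside carriers gave values near 0. The 3 tested lay between -0.12 for Slc29a2 and 0.00 for Slc29a1, the equilibrative carrier ENT1, which had 1821 and 1753 in K14-caSmad1, against 1770 and 1798 in wild type. Slc29a2 was dim in K14-caSmad1 on 1 array, so only a bound holds for it, at least 1.09-fold lower. Among 9 tested nucleoside salvage genes of 12, Adk, adenosine kinase, was higher with a log2 ratio of 1.33. Nt5e, the enzyme CD73 that forms adenosine outside the cell, was lower with -1.47. Their list had a median of 0.25.

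Organic ion carriers were dim: 6 of the 11 tested were above background on both arrays in wild type or K14-caSmad1 alone. Slc22a17, a receptor for lipocalin-2, had 431 and 369 in K14-caSmad1, not above background, against 1307 and 1183 in wild type, and was at least 3.01-fold lower. With all spots in the background fit its mean log2 ratio was -1.02, a smaller change than this bound. Its other probe was above background in neither group. Slc22a5 (OCTN2), the carnitine carrier, had -0.57. Slc22a23, a carrier of unknown substrate, was the brightest of the group and had the highest ratio, 0.42, with its other probe at -0.19. Slc5a6, the sodium-coupled vitamin carrier of biotin and pantothenate, had -0.40.

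Probes of the same gene often gave ratios of different size. Of 22 genes with 2 or more tested probes 9 had probes on both sides of 0, and none had a probe below -0.5 and another above 0.5 (0 genes). Of the 16 called carriers 7 had another tested probe, and only in Slc16a1 was it 2-fold the same way and above background in both groups. The other Slc20a2 probe was dim in K14-caSmad1, with a bound below 2-fold. In Slc31a1 and Slc27a1 the brighter probe gave the larger fall, and in Slc16a6 and Slc39a8 the other probe was dim in K14-caSmad1. The remaining 9 called carriers had 1 tested probe each.

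**Figure D3:**
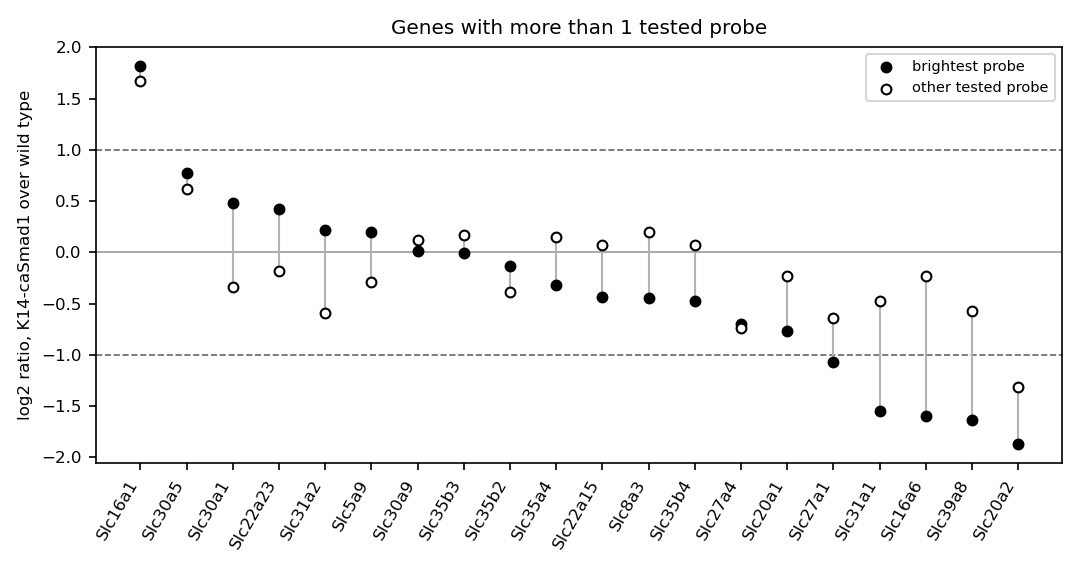
Log2 ratio of K14-caSmad1 over wild type (y axis, mean of both arrays) of every tested probe for 20 genes with more than 1; filled points are the brightest probe, which stands for the gene, open points are other tested probes, and dashed lines lie at 2-fold. The ratio of a probe dim in 1 group, such as both Slc20a2 probes, is plotted as computed although only a bound holds. Both Slc16a1 probes lie above 2-fold higher, while the other probe of Slc31a1 lies at -0.47 against -1.55.

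Of the 158 genes 65 could not be tested. Of these 51 were above background on no array in any group, and 14 on 1 array only in some group. Among the untested were 11 of the 19 sugar carriers, 6 of the 14 monocarboxylate carriers, 8 of the 22 nucleotide sugar carriers and 8 of the 24 zinc carriers. None was above background on both arrays in the same group with these probes, which is no proof of absence.

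The promoter of Slc16a1 is shown because a pair of probes measured its rise. Smad1 is known to bind GC-rich elements with the letters GGCGCC, besides the palindrome GTCTAGAC bound by other Smads. Promoters were read from RefSeq (GRCm38.p6) as 250 bases before to 50 after the gene's start. The promoter of Slc16a1, chr3:104638414-104638713, plus strand, holds 2 matches, in capitals, within 73.7% G and C.
Slc16a1 promoter: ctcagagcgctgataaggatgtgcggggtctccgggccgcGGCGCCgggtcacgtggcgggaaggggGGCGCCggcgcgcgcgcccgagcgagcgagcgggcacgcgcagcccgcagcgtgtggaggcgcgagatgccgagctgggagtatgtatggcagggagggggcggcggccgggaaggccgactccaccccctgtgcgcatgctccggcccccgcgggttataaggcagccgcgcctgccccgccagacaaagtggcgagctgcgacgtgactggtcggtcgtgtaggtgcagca
GGCGCC, which reads the same on both strands, was in 1 of the 2 promoters of higher carriers and in 1 of the 10 promoters found for 7 of the 14 lower ones. It was in 11.8% of the 93 promoters of tested carriers (70 of 91 genes matched) and in 11.9% of all 32851 promoters. GTCTAGAC was in 0 promoters of tested carriers and in 0.213% of all. A match is a description of the letters and no sign of binding.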

How the data were processed

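RNA of K14-caSmad1 and wild-type epidermal keratinocytes was hybridised on 2 two-colour arrays of 1 slide. Per the file headers, Agilent Feature Extraction 10.5.1.1 wrote the deposited spot intensities (mean signal, local background and processed signal, without normalization between arrays) and a log10 ratio of Cy5 over Cy3. The deposited series table holds the same log10 ratios (slope 1, medians 0.023 and -0.01, largest differences 0.00396 and 0.00397). Scale, direction and lack of centring were thus known.

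From the mean and background intensities the background was corrected in limma 3.58.1 (R 4.3.3) by normexp with an offset of 50. Left out were 36 spots of replicate 1 whose local background was marked non-uniform, and outlier spots. Log2 ratios were normalized within each array by loess (span 0.3, control spots at weight 0), channel levels by Aquantile, and spots of a probe averaged. A gene was represented by its brightest tested probe. A probe dim in 1 group has only a bound, the bright mean over the mean of the higher of the lowest signal above background and the dim probe's own. Such bounds are open to dye bias and hold for the main background correction only. With all spots in the background fit several ratios were smaller than the bound. The test was limma's lmFit and eBayes over all genes with Benjamini-Hochberg adjustment at 0.05. On simulated arrays of 15110 features the 2-fold rule called all 200 changed features in the right direction and 0 unchanged ones. The changed features were bright and changed well beyond 2-fold, so the rule could hardly miss them. These counts do not describe dim probes, changes near 2-fold or the limma test. Names of other genes were updated through the RefSeq table of GRCm38.p6, which held the accession of 24844 probes, the symbol of 6045 more and an older symbol of 1810, while 8475 probes keep their deposited name.

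The members, substrate groups, partner lists and markers were chosen with earlier results of these data known. Named were the called members, the highest and lowest member of each substrate group, a list of best known carriers, members whose probes oppose each other, and up to 4 called genes of each partner list. Some genes that these rules take are not reported here, though counts and medians include them. Alternatives covered normalization, background correction, the filter, the probe rule, the threshold, the deposited table and each array left out.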

Additional observations from a re-analysis of the deposited data

How the results depend on the processing

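The main settings called 2 carriers higher and 14 lower with a median log2 ratio of -0.12, against 4.08% and 9.81% of all genes. Shares of all genes, higher then lower, follow in brackets. Slc16a1, Slc40a1 and Slc4a7 kept their call in all 11 alternatives that keep the 2-fold rule. The filter settings left their values unchanged, as did the probe rules for Slc40a1 and Slc4a7. Without the background subtraction 1 was higher and 10 lower (median -0.058, 3.6% and 6.52%). Keeping all spots in the normexp fit, 1 was higher and 5 lower (median -0.048, 2.58% and 4.02%), leaving Slc16a1, Slc16a6, Slc31a1, Slc39a8, Slc40a1 and Slc4a7. With the scanner's processed signals, and with the deposited table, 5 were higher and 21 lower (median -0.183 in each, 10.7% and 16% with the signals, 10.7% and 15.9% with the table), all 16 called carriers among them. Only probes above background in both groups gave 1 higher and 8 lower (median -0.021, 4.61% and 8.63%), and no filter gave 2 and 14 (median -0.074, 155 carriers, 1.72% and 4.19%). The probe of smallest change gave 2 and 9 (median -0.087, 3.07% and 8.31%), and averaging each gene's probes 2 and 11 (3.34% and 9.1%). At 1.5-fold 5 were higher and 23 lower (13.2% and 19.5% of all genes), and limma's threshold passed 30 and 47 (40.9% and 46.3%). Leaving out either array gave 2 higher and 14 lower each time, with medians between -0.126 and -0.12 (4.51% to 4.65% and 10.4%). No call could be lost there, because the rule already needs 2-fold on each array, and only added calls were possible. Median centring moved the median of all genes to 0.22 and that of the carriers to 0.107, which reversed its sign, with 3 higher and 11 lower (9.44% and 6.9%). It also reversed the medians of cation-chloride (0.08), other sodium-coupled Slc5a (0.033), monocarboxylate (0.125), nucleoside (0.146), organic ion (0.023) and sodium-proton carriers (0.192). Sodium-proton carriers further turned to 0.005 without background subtraction, 0.013 with all spots, 0.057 with no filter and 0.294 with both groups above background, which gave monocarboxylates 0.17. With no filter nucleotide sugars turned to -0.114 and the zinc group to -0.015. Beyond the settings' own construction the cause was not tested. Each array already pairs both groups, so every ratio is a paired value. No further pairing was possible because the ratios form a single group. Signal over background limits the dim genes: 6 of the 14 lower carriers and 1 of the 2 higher ones have only a bound, and the number of arrays limits the precision of every value.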
